A study of Mus musculus with 6 samples.

Results

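The immediate early response genes *Egr1*, *Egr2*, *Egr3*, *Nr4a1*, *Nr4a2*, *Nr4a3*, *Arc*, *Npas4* and *Ier2* were examined for open chromatin in *Srr2*-deleted neural cultures. They were chosen by name, as 9 of 21938 protein-coding genes, and every ATAC-seq peak that overlapped a gene body or the 50 kb on either side was kept. Peaks of the 6 libraries that overlapped by 1 bp or more were merged into regions, and 92 of the 119719 regions of the genome fell in these windows. ATAC-seq uses a transposase that cuts and tags accessible DNA, and a peak is a place where tagged fragments pile up above the local background of the same library.

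The cultures were neural stem cells (NSCs) of the subependymal zone (SEZ), a stem cell niche of the adult mouse brain, from mice of 10 weeks. All of them carried the CRISPR-Cas9 deletion of *Srr2*, an enhancer of the stem cell transcription factor gene *Sox2*. Libraries of wild-type cultures are not part of what was analysed here. Proliferating cultures (PROLIF) had spent 2 days in vitro (DIV) by the sample labels (the text on the whole series gives a longer time). The study's methods give fibroblast growth factor in the medium for this time. Early differentiating cultures (DIFF) had a further 1 day without mitogens and with 2% fetal bovine serum, so that the removal of mitogens and the addition of serum cannot be told apart. Each state had 3 libraries, with replicates 1, 2 and 4 in the labels, and p-values measure the spread between these libraries.

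The lists held 60006 to 88039 peaks. Depth differed between libraries, and the pileup of their background was 2.85 to 3.63 reads in 5 libraries and 6.01 reads in DIFF replicate 4, the deepest. Promoters of all 8 NSC and progenitor markers had a peak in all 6 libraries, against 3 of 4 neuronal, 2 of 4 oligodendrocyte, 2 of 4 microglial and 0 of 4 endothelial markers. No promoter peak was found in any library for 1 oligodendrocyte, 1 microglial and 3 endothelial markers. *Nes*, which encodes the progenitor filament nestin, had a lower promoter fold enrichment in DIFF (log2 difference -0.73, SE 0.19, limma adjusted p = 0.0149), and so did the microglial gene *P2ry12* (-0.69, SE 0.15, limma adjusted p = 0.00404). *P2ry12* was the only 1 of the 4 microglial markers that could be fitted. The *Aif1* promoter region had a peak in 2 PROLIF and 3 DIFF libraries, and that of *Csf1r* lacked one in DIFF replicate 2 only. *Nes* was the only 1 of the 8 NSC and progenitor markers called by fold enrichment. By pileup 1 of the 8, *Nes*, was called lower and 1, *Notch1*, higher (limma). The endothelial gene *Pecam1* had a promoter peak in the 3 PROLIF libraries, at a fold enrichment of 5.33 to 6.30, and in none of the DIFF libraries. The part of these genes in the results was not tested.

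Immediate early genes are transcribed within minutes of a growth factor, serum or synaptic stimulus, from factors that are already present in the cell. Serum response factor bound to the serum response element, whose core is called the CArG box, is the best known of these, together with its ETS-family partners, CREB and MEF2. In neural tissue the EGR zinc finger factors, the NR4A orphan nuclear receptors, the synaptic protein Arc and the factor Npas4 are widely used as marks of recent stimulation.

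The CArG boxes are shown first because 5 of the 9 genes had one in an open region. An exact CArG box lay within 100 bp of the summit in 6 of the 92 regions (6.52%), against 1.08% of all 119719 regions and 0.880% of all regions within 3 kb of a start site. These regions belonged to *Egr1*, *Egr2*, *Egr3*, *Npas4* and *Arc*, the last with 2, and each of the 6 had a peak in all 6 libraries. The *Egr1* promoter held 3 boxes. Sequences of 4 boxes, 1 at *Egr2*, 2 at *Arc* and 1 at *Npas4*, are given below on the plus strand of GRCm38 with 25 bases on either side of the box, which is in capitals. None overlapped an annotated exon.
Egr2, chr10:67537772-67537832: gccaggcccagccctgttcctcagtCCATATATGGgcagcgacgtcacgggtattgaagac
Arc, proximal, chr15:74673469-74673529: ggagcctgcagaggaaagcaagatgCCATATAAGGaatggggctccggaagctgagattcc
Arc, distal, chr15:74679261-74679321: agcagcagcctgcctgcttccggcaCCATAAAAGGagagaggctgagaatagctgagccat
Npas4, chr19:5001828-5001888: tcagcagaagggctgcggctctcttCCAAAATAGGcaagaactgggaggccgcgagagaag

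The *Egr2* box shown lay 67 bp upstream of the nearest start site of its gene. The boxes of *Arc* lay 929 bp and 6721 bp upstream of its start site, and the *Npas4* box lay 11542 bp upstream. The summits were between 4 and 84 bp from these boxes. RefSeq promoter sequences (GRCm38.p6, 250 bases before to 50 after a start) were at hand for 5 of the 9 genes, *Egr2*, *Nr4a1*, *Nr4a2*, *Nr4a3* and *Npas4*. Only those of *Egr2* held a CArG box, which was in 1.63% of all 32851 entries. Besides the box shown, the entry chr10:67537316-67537615 held a second one, CCTTTTTTGG, between 72 and 62 bases before its start. The second box was not among the matches within 100 bp of the summit.

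Other motifs of immediate early regulation were counted in the same way. The ETS core CCGGAA was near the summit of 10 regions (10.9%, against 5.27% of all regions and 10.6% of regions near a start site). The AP-1 site, TGACTCA or TGAGTCA, was near 5 summits (5.43% against 5.76%). The MEF2 box was found at *Nr4a1* and *Nr4a3* only, in 2.17% of the regions against 0.571% of all. The cyclic AMP response element TGACGTCA was found at 1 summit, at the start of *Ier2*, and the EGR site GCGTGGGCG at 1, upstream of *Egr3*. The NR4A site AAAGGTCA was near 0 of the 92 summits and 0.734% of all. Both strands were searched, and a match is a stretch of letters, not a measured binding site.

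The windows were open in both states. Of the 92 regions, 48 had a peak in all 6 libraries (52.2%, against 33.5% of all regions), 28 in 2 to 5 libraries and 16 in 1 library. Of these 16, 5 were in PROLIF replicate 1 alone and 5 in the deepest library, DIFF replicate 4, alone. Regions within 3 kb of any start site made up 52 of the 92, and 35798 of all 119719. The shares compared are not matched for this. The regions were spread unevenly, with 17 at *Ier2*, 15 at *Arc*, 14 at *Nr4a1*, 10 at *Npas4*, 9 at *Egr2*, 8 at *Egr1*, 7 at *Nr4a3* and 6 each at *Egr3* and *Nr4a2*. Per 100 kb of window the median was 8.43 regions, and over all protein-coding genes it was 6.35.

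Most regions near start sites were shared by all libraries, and most of those farther out were not. Within 3 kb of a start site of the 9 genes themselves lay 24 regions, 18 of them shared by all 6 libraries. Another 28 lay within 3 kb of a start site of a neighbouring gene, with 19 shared, and 40 lay farther out, with 11 shared. Regions were ranked within each list by the deposited −log10 p, with no peak counted as 0. The median region stood at percentile 70.5 near the genes' own starts, 70.6 near those of neighbouring genes and 17.5 farther out.

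**Figure D1:**
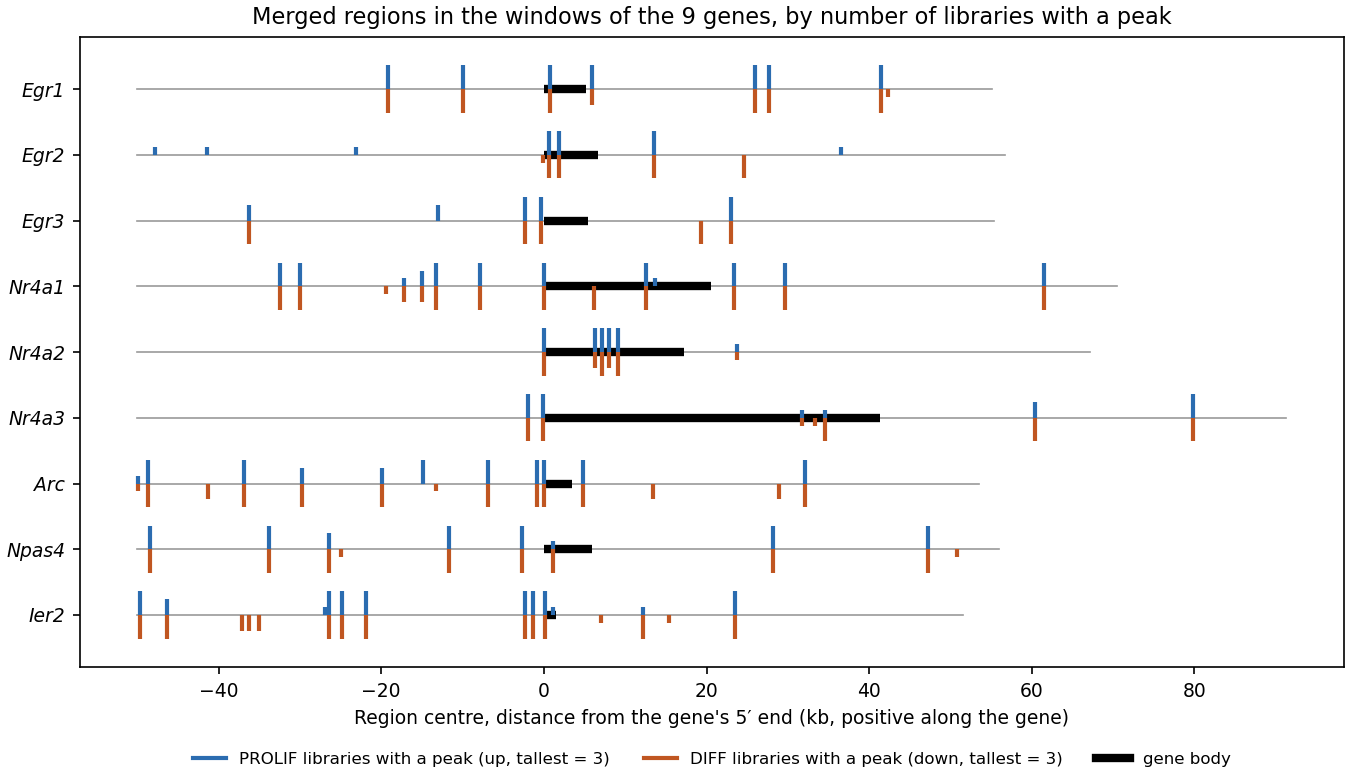
Map of the 92 merged regions, 1 row per gene, by the distance of the region's centre from the gene's 5′ end in kb (positive along the gene). Blue bars up and orange bars down give the number of PROLIF and DIFF libraries with a peak, from 0 to 3, and the black bar is the gene body; 48 regions have the full bar both ways, and most of the partial ones lie away from the gene bodies.

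Libraries of the 2 states held overlapping numbers of these peaks. The windows contained 72, 60 and 57 peaks in PROLIF replicates 1, 2 and 4 and 71, 68 and 78 in DIFF replicates 1, 2 and 4. The means were 63 ± 7.94 and 72.3 ± 5.13 (SD, n = 3). Per 10000 peaks of the list, the PROLIF libraries held 8.70, 9.0 and 9.50 and the DIFF libraries 9.96, 9.61 and 8.86, so that the deepest DIFF library fell among the PROLIF values. More DIFF than PROLIF libraries had a peak in 28 regions (30.4%, against 34.8% of all regions), and fewer in 12 (13.0%, against 25.1%). These shares too are not matched for distance to a start site.

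All 9 genes had a promoter peak, within 3 kb of an annotated start site, in all 6 libraries, as did 64.6% of protein-coding genes. The promoter region of a gene is here the one with the highest mean percentile among those within 3 kb. At the 9 genes its percentile, averaged over the libraries, had a median of 87.2, close to the 86.4 over all genes. The local background there had a median of 10.7 reads, against 6.69 over all promoter regions, and it divides the fold enrichment. In the limma test of fold enrichment, adjusted over the 40102 regions shared by all libraries, 0 of the 9 promoter regions passed an adjusted p of 0.05, and 1 had an unadjusted p under 0.05. Over all 14061 promoter regions fitted, 3.82% were called higher and 1.95% lower in DIFF, 5.77% in all. The 9 genes had a median log2 difference of 0.02 (DIFF minus PROLIF), and all genes one of 0.06.

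**Figure D2:**
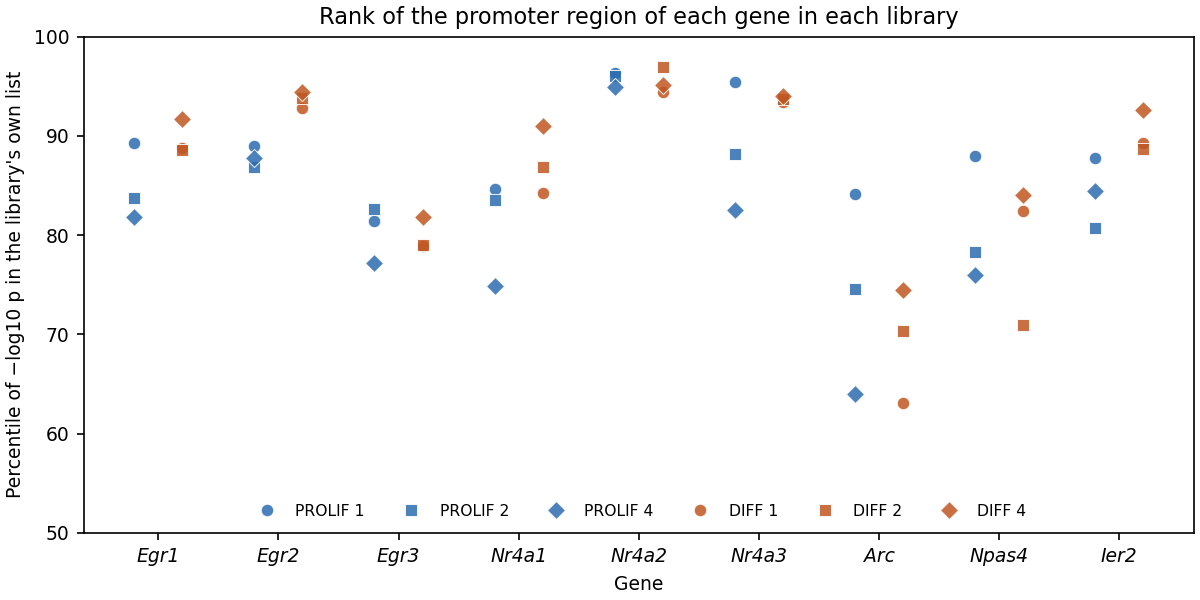
Percentile of the promoter region of each gene within each library's own list, ranked by −log10 p, with 3 PROLIF (blue) and 3 DIFF (orange) libraries per gene. *Nr4a2* stands highest, between 94.4 and 97.0, and *Arc* reaches lowest, 63.1 in DIFF replicate 1. At *Egr2* and at *Ier2* the 3 DIFF libraries lie above the 3 PROLIF libraries.

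Among the EGR genes, *Egr2* had the largest promoter difference of the 9 genes in fold enrichment, though not by pileup or percentile. *Egr2* (ENSMUSG00000037868.15, chr10:67535475-67542188, plus strand) encodes a zinc finger factor known for its roles in hindbrain patterning and myelination. Its promoter region, chr10:67536634-67537925, which holds the CArG box shown above, had a fold enrichment of 8.50, 7.56 and 7.68 in PROLIF replicates 1, 2 and 4 and of 8.91, 10.5 and 9.33 in DIFF replicates 1, 2 and 4. Every DIFF value was above every PROLIF value. The log2 difference was 0.33 (SE 0.14), which did not pass (limma adjusted p = 0.109). By within-list percentile in place of fold enrichment it did pass, with 88.9, 86.8 and 87.8 in PROLIF and 92.8, 93.9 and 94.5 in DIFF (limma adjusted p = 0.0196). Of the 14060 other promoter regions with peaks in all libraries, those of *Etv1* and *Fgfrl1* had the values most like it over the 6 libraries, with root mean square differences of 0.040 and 0.048 in normalized log2 fold enrichment.

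*Egr1* (ENSMUSG00000038418.7, chr18:34859823-34864984, plus strand) encodes the founding EGR factor and is a standard mark of recently stimulated cells. Its promoter region, chr18:34859798-34861466, was the widest of the 9 at 1669 bp and covered the 5′ end of the gene. The fold enrichment was 6.88, 5.55 and 5.23 in PROLIF and 5.51, 6.91 and 6.80 in DIFF, on a local background of 15.6 to 29.6 reads. The states overlapped, and the log2 difference was 0.20 (SE 0.17, limma adjusted p = 0.504). A second strong region lay 25887 bp beyond the last *Egr1* start site, at chr18:34887094-34887887, with a percentile of 90.6 to 94.5 in all libraries and a log2 difference of 0.06 (SE 0.12, limma adjusted p = 0.796).

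*Egr3* (ENSMUSG00000033730.4, chr14:70077203-70082614, plus strand) encodes a related factor that acts in muscle spindles, lymphocytes and neurons. Its highest-ranked region near a start, chr14:70074430-70075440, lay 1763 bp upstream and held the EGR site. Its fold enrichment was 7.31, 7.0 and 6.23 in PROLIF and 6.20, 7.22 and 6.47 in DIFF. The ranges coincided, with a log2 difference of 0.02 (SE 0.16, limma adjusted p = 0.964). The region with the *Egr3* CArG box, chr14:70076752-70077000, was also shared by all libraries and ranked lower, at a mean percentile of 62.4 (log2 difference 0.17, limma adjusted p = 0.572).

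The NR4A genes encode orphan nuclear receptors that act without a known bound hormone. *Nr4a2* (ENSMUSG00000026826.13, chr2:57106830-57124003, minus strand), known for its role in dopaminergic neurons, had the highest-ranked promoter region of the 9 genes, chr2:57123286-57124641, at a mean percentile of 95.6. Its fold enrichment was 15.2, 13.8 and 13.5 in PROLIF and 12.9, 16.5 and 13.3 in DIFF. The DIFF values lay on both sides of the PROLIF values (log2 difference 0.02, SE 0.09, limma adjusted p = 0.905). All regions but 1 in the *Nr4a2* window were within 3 kb of one of its start sites.

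*Nr4a1* (ENSMUSG00000023034.7, chr15:101254269-101274795, plus strand) encodes Nur77, which acts in immune cells and in the response to growth factors. Its promoter region, chr15:101266304-101267303, at an internal start site, had a fold enrichment of 10.8, 9.52 and 7.26 in PROLIF and 7.40, 10.0 and 9.45 in DIFF (log2 difference 0.01, SE 0.13, limma adjusted p = 0.967). The states overlapped throughout. The strongest of all 92 regions lay 7436 bp upstream of *Nr4a1*, at chr15:101245986-101246833, with a fold enrichment of 18.2, 17.4 and 15.3 in PROLIF and 14.6, 17.6 and 16.2 in DIFF. It ranked between percentiles 96.5 and 98.6 in every library, above any promoter region of the 9 genes by mean percentile, and its log2 difference was -0.06 (SE 0.08, limma adjusted p = 0.691).

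*Nr4a3* (ENSMUSG00000028341.9, chr4:48045153-48086447, plus strand), which encodes NOR1, had its highest-ranked region, chr4:48042691-48043697, 1456 bp upstream of its nearest start site. The fold enrichment was 8.40, 6.14 and 5.65 in PROLIF and 6.49, 7.42 and 6.79 in DIFF. PROLIF replicate 1 had the highest value and the other two PROLIF libraries the lowest (log2 difference 0.13, SE 0.16, limma adjusted p = 0.664).

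*Arc* (ENSMUSG00000022602.14, chr15:74669083-74672570, minus strand) encodes a synaptic protein that controls the removal of glutamate receptors from the membrane. Its promoter region, chr15:74672261-74672916, was the lowest-ranked of the 9, at a mean percentile of 71.8. The fold enrichment was 8.87, 6.35 and 5.48 in PROLIF and 4.60, 6.69 and 5.81 in DIFF, with overlapping states (log2 difference -0.20, SE 0.18, limma adjusted p = 0.515). The distal region with a CArG box, chr15:74679007-74679827, was of like rank (mean percentile 68.8), with a fold enrichment of 8.20, 8.30 and 6.08 in PROLIF and 7.09, 8.15 and 7.80 in DIFF. Here too the states overlapped (log2 difference 0.10, SE 0.15, limma adjusted p = 0.719).

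*Npas4* (ENSMUSG00000045903.9, chr19:4984355-4990316, minus strand) encodes a neuronal factor that is induced by calcium entry. Its promoter region by rank, chr19:4992826-4993267, lay 2510 bp upstream and coincided with a start site of the annotated gene AC124502.5. There the fold enrichment was 14.1, 9.89 and 8.90 in PROLIF and 9.53, 8.85 and 9.91 in DIFF (log2 difference -0.16, SE 0.13, limma adjusted p = 0.451). The region closest to an *Npas4* start site, chr19:4989077-4989385, was weaker, with a peak in 1 PROLIF library, replicate 1, at a fold enrichment of 3.85 and in the 3 DIFF libraries at 4.35, 6.04 and 5.39. It has no value in the other PROLIF libraries and was not tested.

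*Ier2* (ENSMUSG00000053560.4, chr8:84661331-84662852, minus strand) encodes a small nuclear protein of the growth factor response. Its highest-ranked region, chr8:84663962-84664406, lay 1110 bp upstream, and its fold enrichment was 9.17, 7.18 and 7.41 in PROLIF and 7.35, 8.90 and 8.95 in DIFF. The states overlapped (log2 difference 0.14, SE 0.14, limma adjusted p = 0.56).

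Away from the promoter regions of the 9 genes, 3 shared regions were called higher in DIFF and 0 lower. They were 3 of 48 shared regions in the windows, against 6.92% called higher and 8.9% called lower over all shared regions, so the share called higher was near the background. Of the 48, 37 lay within 3 kb of a start site. Over the promoter regions of all genes, fewer were called lower (1.95%) than higher (3.82%). At an unadjusted p under 0.05 the counts were 6 higher, the *Egr2* promoter region among them, and 0 lower of the 48, which include the promoter regions. The shares were 14.2% and 14.5% of all shared regions, and 11.2% and 4.58% of all promoter regions. Under every other setting run the count called lower was also 0, except for 1 by pileup. The log2 difference was above 0 in 37 of the 48, against 54.4% of all shared regions. Its median was 0.11, against 0.03 over all shared regions and 0.06 over all promoter regions. The sequences around the 3 summits follow, on the plus strand of GRCm38, because these are the 3 regions called. No searched motif lay in these stretches.
Npas4 upstream, chr19:5001867-5002017: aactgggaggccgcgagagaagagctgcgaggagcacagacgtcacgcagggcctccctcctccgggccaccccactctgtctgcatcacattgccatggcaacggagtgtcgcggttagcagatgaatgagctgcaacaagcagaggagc
Ier2 window, in Nfix, chr8:84712497-84712647: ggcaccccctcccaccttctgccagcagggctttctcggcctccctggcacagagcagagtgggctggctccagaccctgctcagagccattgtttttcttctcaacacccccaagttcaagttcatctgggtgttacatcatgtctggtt
Arc downstream, chr15:74640312-74640462: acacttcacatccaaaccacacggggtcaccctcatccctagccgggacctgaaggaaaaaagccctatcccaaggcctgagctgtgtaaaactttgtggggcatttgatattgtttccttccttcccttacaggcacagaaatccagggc

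The *Npas4* region, chr19:5001622-5002410, lay 11306 bp upstream of the gene between genes, and it is the one that holds the *Npas4* CArG box. Its fold enrichment was 13.4, 9.92 and 8.76 in PROLIF and 12.4, 15.6 and 14.2 in DIFF. Both states had wide ranges, and DIFF replicate 1 was below PROLIF replicate 1. The log2 difference was 0.43 (SE 0.10, limma adjusted p = 0.00552), and it passed without any one library (adjusted p up to 0.0320). The pileup at the summit, recovered from each peak's fold and p, was 71, 47 and 40 reads in PROLIF and 90, 99 and 148 in DIFF. These reads, which are not scaled for depth, did not overlap, and the local background was also higher in DIFF, at 6.31, 5.40 and 9.51 reads against 4.36, 3.84 and 3.68.

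The region in the *Ier2* window, chr8:84712286-84712782, lay 49434 bp from *Ier2* in an intron of *Nfix*, 1286 bp from a start site of *Nfix*, which encodes a nuclear factor I protein of neural progenitors. Its fold enrichment was 8.98, 6.76 and 5.44 in PROLIF and 8.71, 10.3 and 8.55 in DIFF. PROLIF replicate 1 lay among the DIFF values, with a log2 difference of 0.47 (SE 0.15, limma adjusted p = 0.0356). It passed without PROLIF replicate 1 but not without any one of the other 5 libraries (adjusted p 0.0623 to 0.116). The pileup separated the states more, with 47, 33 and 24 reads in PROLIF and 127, 135 and 198 in DIFF. The local background rose with it, from 4.34, 4.03 and 3.60 reads in PROLIF to 13.7, 12.2 and 22.3 in DIFF, and it divides the fold enrichment.

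The *Arc* region, chr15:74640260-74640563, lay 32007 bp from the *Arc* start site on the far side of the gene, and 3907 bp from *Mroh4*. Its fold enrichment was 6.55, 4.06 and 4.68 in PROLIF and 7.55, 8.29 and 5.99 in DIFF. DIFF replicate 4, the deepest, was below PROLIF replicate 1. The log2 difference was 0.60 (SE 0.19, limma adjusted p = 0.0378), and it did not pass without PROLIF replicate 2 (adjusted p = 0.139), DIFF replicate 1 (0.145) or DIFF replicate 2 (0.117). By within-list percentile it did not pass either (limma adjusted p = 0.0623).

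**Figure D3:**
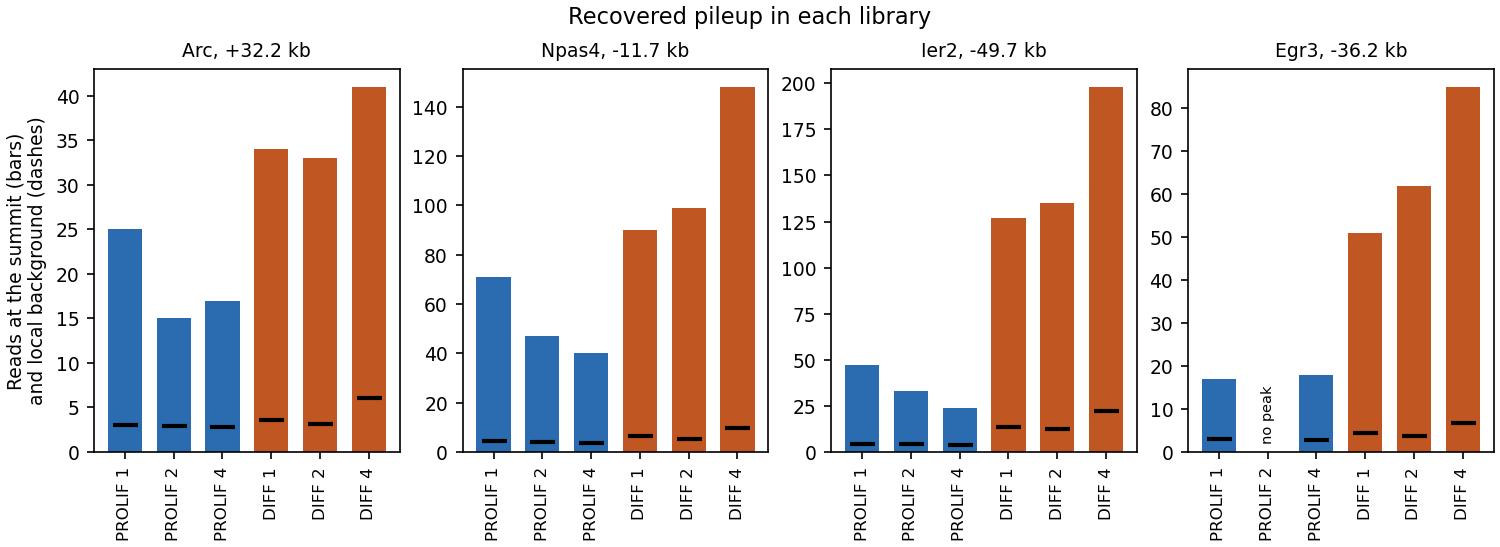
Recovered pileup at the summit (bars, reads) and local background (black dashes, reads) in each library for the 3 regions called higher in DIFF and the *Egr3* region 36029 bp upstream, titled by the distance of the centre from the 5′ end. The DIFF bars stand above the PROLIF bars in all 4, most at the *Ier2* window (24 to 47 against 127 to 198 reads). Reads are not scaled for depth, and the background dashes are higher in DIFF in all 4.

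Names of the deposited peaks carry an input number, which is lower in PROLIF replicates 1 and 4 and DIFF replicate 1 and higher in PROLIF replicate 2 and DIFF replicates 2 and 4. Within the lower and the higher numbers, the log2 differences in fold enrichment were 0.36 and 0.50 at the *Npas4* region, 0.52 and 0.43 at the *Ier2* window and 0.66 and 0.76 at the *Arc* region. At the *Egr2* promoter they were 0.34 and 0.34. What the numbers stand for is not given in the sources used here.

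Read by pileup in place of fold enrichment, an alternative chosen after seeing the data, 13 of the 48 shared regions passed, 12 higher and 1 lower in DIFF (limma), against 13.6% called higher and 13.7% lower, 27.3% in all, over the 39487 regions fitted. Of these 13, 3 lay within 3 kb of the genes' own start sites, 6 near start sites of neighbouring genes and 4 farther out. Of the 9 promoter regions 1 passed, that of *Nr4a1*, against 16.6% higher and 6.39% lower, 23.0% in all, over every promoter region fitted. It had 77, 64 and 45 reads in PROLIF and 79, 87 and 150 in DIFF (log2 difference 0.39, limma adjusted p = 0.0315), and its local background was 5.34 to 6.21 reads in PROLIF and 7.80 to 15 in DIFF. The strong region upstream of *Nr4a1* also passed (log2 difference 0.32, limma adjusted p = 0.0165). The region called lower was at an internal start of *Nr4a2*, chr2:57114253-57115414, with 157, 121 and 88 reads in PROLIF and 103, 113 and 149 in DIFF. These reads overlapped, and after the libraries were normalized for depth the log2 difference was -0.33 (limma adjusted p = 0.0315).

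**Figure D4:**
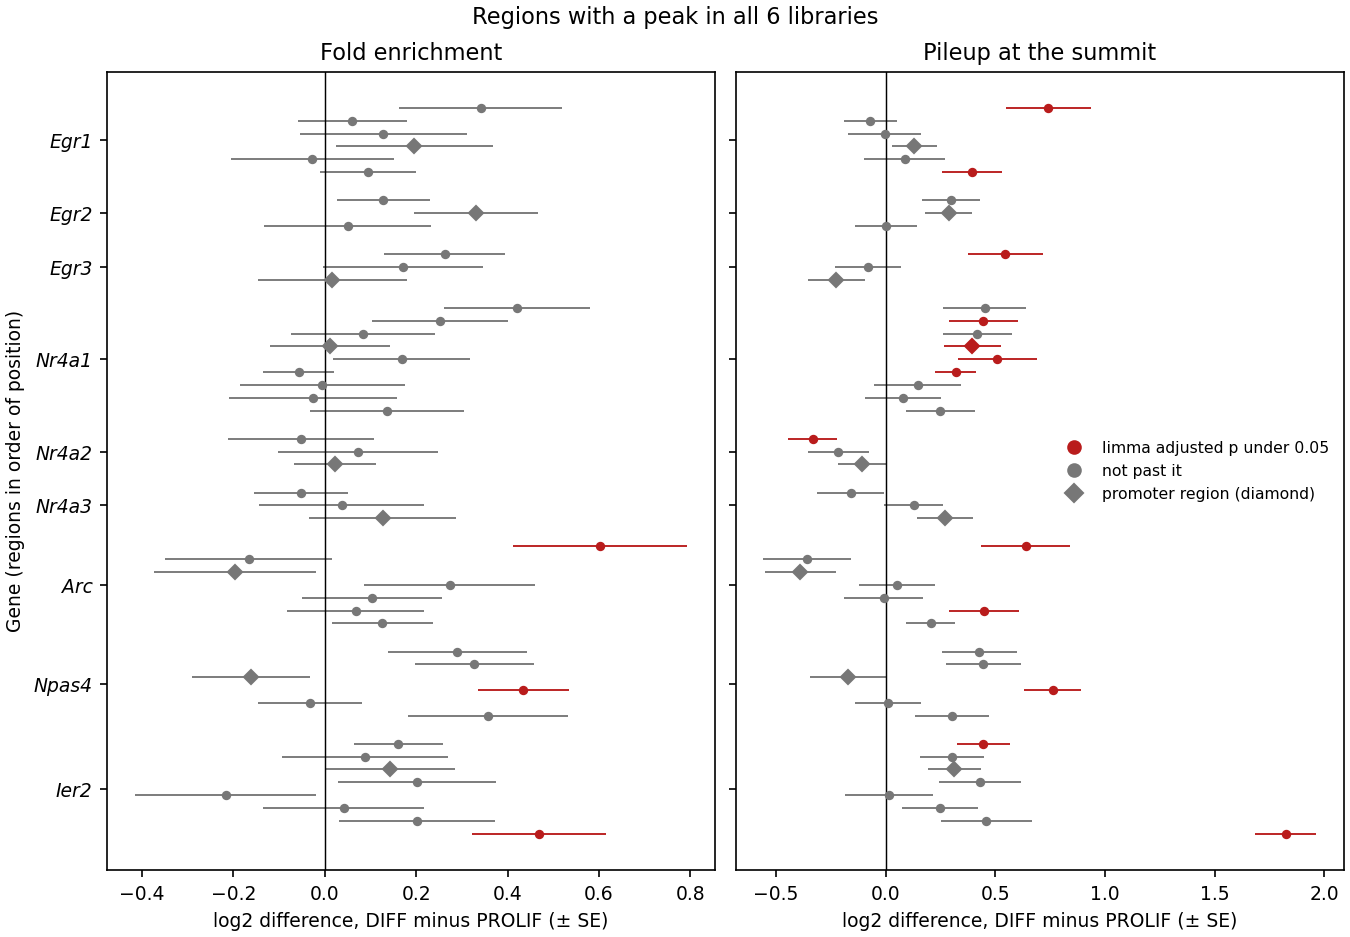
Log2 difference between the states (DIFF minus PROLIF, ± SE) for the 48 shared regions, grouped by gene in order of position, by fold enrichment (left) and by pileup at the summit (right). Diamonds are promoter regions and red marks an adjusted p under 0.05 by limma, which 3 regions pass on the left and 13 on the right.

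Regions seen in 1 state only were few. There was 1 with a peak in all PROLIF and no DIFF libraries (1.09%, against 1.79% of all regions), and there were 3 with a peak in all DIFF and no PROLIF libraries (3.26%, against 3.48%), shares near the background. An absent peak is signal under the caller's threshold and not closed chromatin. Their summits, on the plus strand of GRCm38 with any AP-1 site in capitals, read as follows.
Arc, PROLIF-only, chr15:74687321-74687471: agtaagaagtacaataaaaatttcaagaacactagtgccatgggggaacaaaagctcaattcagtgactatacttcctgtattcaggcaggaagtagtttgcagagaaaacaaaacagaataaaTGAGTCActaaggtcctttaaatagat
Egr2, DIFF-only, chr10:67559955-67560105: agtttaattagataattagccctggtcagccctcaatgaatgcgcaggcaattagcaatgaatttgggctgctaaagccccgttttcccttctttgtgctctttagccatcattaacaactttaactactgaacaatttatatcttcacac
Egr3, DIFF-only, chr14:70096446-70096596: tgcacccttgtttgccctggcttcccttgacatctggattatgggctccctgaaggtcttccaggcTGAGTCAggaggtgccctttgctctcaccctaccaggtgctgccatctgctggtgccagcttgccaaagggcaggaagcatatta
Nr4a1, DIFF-only, chr15:101260421-101260571: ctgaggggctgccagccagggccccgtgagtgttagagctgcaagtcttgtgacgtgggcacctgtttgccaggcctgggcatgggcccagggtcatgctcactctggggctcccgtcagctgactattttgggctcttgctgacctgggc

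The PROLIF-only region lay 14634 bp upstream of *Arc*, chr15:74687204-74687739, with a fold enrichment of 6.04, 5.08 and 3.64 and percentiles of 49.5, 40.9 and 14.6. Its rank fell from the middle of one list to the lower end of another, and it holds an AP-1 site near its summit. The DIFF-only region of *Egr2*, chr10:67559835-67560301, lay between genes, 10880 bp from *Ado*, with a fold enrichment of 3.67, 6.06 and 6.13. The DIFF-only region of *Nr4a1*, chr15:101260274-101260626, was in an intron 6005 bp from a start site, at 4.98, 5.05 and 4.14. The DIFF-only region of *Egr3*, chr14:70096428-70096614, was the weakest, at 3.93, 3.10 and 3.13, and it lay 3491 bp from *Bin3* and holds the other AP-1 site.

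A further region upstream of *Egr3*, its highest-ranked one over 3 kb from any start site, could not be fitted because 1 library lacked a peak. It lay 36029 bp upstream, in introns of *Pebp4* and Gm33524, chr14:70040816-70041174. The fold enrichment was 4.53 and 4.94 in PROLIF replicates 1 and 4, with no peak in replicate 2, and 9.52, 13.5 and 11 in DIFF. All DIFF values were above both PROLIF values, and the pileups were 17 and 18 reads against 51, 62 and 85. By rank the region moved from percentiles of 31.6 and 39.7 in PROLIF to 80.6, 85.0 and 85.2 in DIFF, and no test was made.

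Other genes of the immediate early class were read from the same fit. Of 34 such genes, 33 had a promoter peak in all libraries, the exception being *Fosl1*, which lacked one in PROLIF replicate 4. By fold enrichment 2 of 33 were called higher in DIFF and 0 lower (limma), against 3.82% and 1.95% of all promoter regions. At an unadjusted p under 0.05 the counts were 3 and 1, against 11.2% and 4.58%. The 2 were *Klf6*, which encodes a Krüppel-like factor (log2 difference 0.46, SE 0.11, limma adjusted p = 0.00842), and *Egr4*, the remaining EGR gene (0.50, SE 0.16, limma adjusted p = 0.0369). For *Klf6* the fold enrichment was 10.2, 8.56 and 8.75 in PROLIF and 12.2, 12.7 and 11.9 in DIFF, with no overlap. For *Egr4* it was 7.12, 6.02 and 6.94 against 8.13, 10.2 and 8.94, also with no overlap, but by pileup the log2 difference was 0.08 (limma adjusted p = 0.694). The median log2 difference was 0.06 over the 33 and 0.06 over all promoter regions. By pileup 4 of the 33 were higher and 2 lower, against 16.6% and 6.39% of all promoter regions.

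Of 23 genes that encode regulators of this class, such as *Srf*, *Creb1*, the *Mef2* genes and the EGR corepressors *Nab1* and *Nab2*, all 23 had a promoter peak in all libraries. By fold enrichment 0 of 23 were called in either direction (limma), against 5.77% of all promoter regions, with 3 higher and 0 lower at an unadjusted p under 0.05, and the median log2 difference was 0.03. By pileup 3 of 21 were higher and 2 lower, against the same 16.6% and 6.39%.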

How the data were processed

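The authors clipped and trimmed read pairs (Cutadapt and Trimmomatic, with reads under 20 bases dropped) and aligned them to mouse GRCm38 using Bowtie2. Picard marked the duplicates, and MACS2 called narrow peaks in each library on its own, with no model and an FDR of 0.05. Tool versions, read extension and any transposase shift are not given in the sources used here and could move peak edges. The score column deposited by the authors follows from the −log10 q and was not used. The deposited fold enrichment is the ratio of the summit pileup to a background that the caller takes from around the peak in that library, and the deposited −log10 p and q test the same 2 quantities. Read totals were not used here.

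Gene and start site annotation was GENCODE M21, also on GRCm38. Peaks on the assembled chromosomes that overlapped by 1 bp or more were merged, and each library's best-ranked peak gave the value of a region. For the 40102 regions with a peak in all 6 libraries, log2 fold enrichment was quantile normalized and tested with limma 3.58.1 (trend, state as the only term) in R 4.3.3, with Benjamini-Hochberg adjustment over all of them. A region lacking a peak in some library has no value there and was not fitted. Pileup and local background were solved from fold and p by the Poisson formula of the caller. The solved pileup was whole, within 0.05 reads, for at least 99.9879% of resolved peaks in each list, and 0.156 to 0.682% of peaks had a p too small to resolve. For the fit by pileup 1 was added before the log. The background pileup of a library is the low end of its local backgrounds. Motifs were exact matches within 100 bp of the summit of the best-ranked peak. The fit and the recovery of pileups were tested on simulated data. The simulation of the fit changed 200 of 40102 regions. The fit called 53% of planted log2 differences of 1 and 6% of the smaller ones planted, with 1 false call. Far more regions, 6343, were called in the data, so the adjusted threshold was stricter in the simulation. These shares are therefore not the shares of real differences that the fit finds in the data. A region that was not called is still not shown to be unchanged. Scripts ran in Python 3.11.15 with pysam 0.24.0, scipy 1.17.1 and pandas 2.3.3.

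The 9 genes, the gene lists and the tests were chosen with earlier results of these data known. Regions named were the promoter region of each gene, every region of 1 state only, every shared region past an adjusted p of 0.05, and the highest-ranked regions over 3 kb from any start site, of which those of *Nr4a2*, *Nr4a3* and *Ier2* were weak and are not described. List genes named were those past the same threshold. The weaker region nearest the *Npas4* start and regions named by pileup were chosen after their values were seen. Alternatives were q of 0.01, lists of 60006 peaks, cover of 50% of a region, windows of 20 and 100 kb, promoters of 1 kb, median centring, within-list percentile, no trend, the replicate block, each library left out, and, chosen after seeing the data, pileup and leaving out replicate 1 of both states. Some planned items are not reported here.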

Additional observations from a re-analysis of the deposited data

How the results depend on the processing

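All 9 genes kept a promoter peak in all libraries used under every setting run for that count except promoters of 1 kb, where 8 did and *Npas4* did not. Windows of 20 kb held 55 regions, 29 of them shared, and windows of 100 kb held 168 regions, 7 DIFF-only regions and a difference of 22.7 peaks per library. PROLIF-only regions numbered 2 with lists of equal length and 0 where peaks had to cover 50% of the region. With 1 library left out, PROLIF-only regions numbered 1 to 2, DIFF-only regions 3 to 7, regions in the windows called higher in DIFF 1 to 4, and regions called higher over the whole genome 1580 to 2485. The count in the windows was 1, the *Npas4* region, without PROLIF replicate 2, DIFF replicate 1 or DIFF replicate 2. Without replicate 1 of both states it was also 1, with 1758 higher over the genome.

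By within-list percentile, 2293 regions of the genome were higher and 2047 lower, and 1 of the 9 promoter regions, *Egr2*, was called higher, against 5.79% of all promoter regions. The differences of *Egr3* and *Nr4a2* turned to -0.51 and -0.28 percentile points. By pileup, 5376 regions were higher and 5395 lower over the genome, 12 and 1 in the windows, and 1 promoter region, *Nr4a1*, was called. The differences at *Egr3* and *Nr4a2* were -0.22 and -0.11. With 1 library or replicate 1 left out, log2 differences ran from -0.062 to 0.055 at *Egr3*, -0.053 to 0.086 at *Nr4a1* and -0.035 to 0.072 at *Nr4a2*. None of these passed, and the cause of these changes was not tested.

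With the replicate number as a block, 3374 regions of the genome were higher and 4086 lower, 3 and 0 in the windows, and 0 promoter regions passed. By pairs of the same number, a difference in at least 2 of 3 pairs and the opposite in none gave 2 regions for PROLIF and 12 for DIFF (2.17% and 13.0%, against 6.30% and 11.1% of all regions). The labels do not say that a number marks a shared culture. The paper describes the ATAC-seq as done on the same cultures in both conditions, but does not tie a number to a culture. Deviations from the state means correlated at 0.0733, 0.122 and 0.105 between libraries of the same number and at -0.0914 to -0.00344 between others. Each library correlated best with its own number, but deviations cancel within a state, so that positive values go with negative ones elsewhere. The contrast is thus partly built in. Whether the numbers mark shared cultures was not tested, and the labels do not state it.

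The part of depth in the regions found in some libraries was not tested. With 3 libraries a state, the SE at the 9 promoter regions was 0.09 to 0.18.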
